A study of Mus musculus with 3 samples.

Results

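Imprinted genes outside the Dlk1-Dio3 domain of chromosome 12 were examined in 3 polyadenylated RNA libraries of male mouse embryonic stem cells (ESCs). The list held 44 genes of 19 imprinted domains, chosen as known imprinted genes and their domain neighbours. Of these, 42 were measured among 24006 gene symbols in all. Members, other gene lists and promoter windows were chosen with earlier results of these data known. Their shares beside those of all genes are therefore descriptions only. Kcnq1ot1 and Phlda2 were not analysed here. The libraries came from an ATRX knockout clone (genotype ATRX-/-, clone KO1-44), a DAXX knockout clone (DAXX-/-, clone KO2-3) and a wildtype clone (WT26). Each genotype was 1 clone with 1 library. All 3 clones had the same C57BL/6x129sV background, were kept in serum with leukaemia inhibitory factor and had been passaged off irradiated feeder cells onto gelatin. With 1 library per genotype no test of genotype was possible, and differences between clones, cultures and genotypes cannot be told apart.

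Genomic imprinting leaves a gene active on the maternal or the paternal copy only. In most imprinted domains, though not all, the choice is set by DNA methylation laid down in the egg or the sperm at imprinting control regions. This methylation is kept in the embryo by ZFP57, TRIM28 and DNMT1. In mouse ESCs, ATRX and the histone variant H3.3 have been located at the methylated copy of such regions, and DAXX is the chaperone that deposits H3.3 on chromatin in a complex with the remodeller ATRX. Many imprinted genes control growth: paternally expressed ones such as Igf2 tend to promote it, and maternally expressed ones such as Grb10 and Cdkn1c tend to restrain it. Gene counts do not separate the parental copies, so a difference in level cannot be assigned to either copy. In bulk RNA, fewer cells of a type and less RNA per cell also cannot be told apart.

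Reads on transcripts numbered 13988376 in the ATRX knockout, 11224100 in the DAXX knockout and 13981915 in wildtype. Atrx had 1800, 3576 and 4582 reads, and Daxx had 972, 623 and 1125 reads, in the ATRX knockout, the DAXX knockout and wildtype in that order, so each targeted transcript was lowest in the library that bears its name. All 9 ESC markers were expressed, with summed levels of 6565, 6571 and 5939 CPM (reads scaled to a common library size) in the same order. Genes used as markers of other cell types also had reads. The 18 endoderm markers summed to 485 CPM in the ATRX knockout, 314 CPM in the DAXX knockout and 768 CPM in wildtype. The 14 trophoblast markers summed to 94.5, 88 and 129 CPM and the 15 fibroblast markers to 72.8, 36.4 and 73.9 CPM in that order. Of these lists, Ttr, Tpbpa, Prl3d1 and Lum were at 0 reads in all 3 libraries. The sums rest on few genes and do not show that such cells were present. Mmp2 had 44.1, 19.2 and 29.6 CPM of the fibroblast sums in that order. In the ATRX knockout, 5 of 7 fibroblast markers averaging 1 CPM or more had a log2 fold below 0 and 2 above. In wildtype, Sparc had 304 CPM, Lamb1 136, Col4a1 117 and Lama1 114, while Gata6 had 2.62 and Sox17 1.38.

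Promoters of the members on which the results turn are given first. The windows run from 250 bases before to 50 after a transcript start in RefSeq (GRCm38.p6). They are printed 5′ to 3′ on the gene's strand, and capitals mark each TGCCGC or its reverse complement GCGGCA, the methylated hexamer that ZFP57 binds.
Grb10 (chr11:12037371-12037670, minus strand), the start upstream of the gene's longest transcript: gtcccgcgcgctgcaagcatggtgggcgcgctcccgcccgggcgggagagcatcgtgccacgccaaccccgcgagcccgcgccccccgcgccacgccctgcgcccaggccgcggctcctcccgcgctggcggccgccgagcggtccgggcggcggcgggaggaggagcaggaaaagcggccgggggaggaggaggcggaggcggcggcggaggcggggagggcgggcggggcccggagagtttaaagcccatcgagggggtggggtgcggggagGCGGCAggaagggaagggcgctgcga
Nnat (chr2:157559828-157560127, plus strand), a gene inside an intron of Blcap: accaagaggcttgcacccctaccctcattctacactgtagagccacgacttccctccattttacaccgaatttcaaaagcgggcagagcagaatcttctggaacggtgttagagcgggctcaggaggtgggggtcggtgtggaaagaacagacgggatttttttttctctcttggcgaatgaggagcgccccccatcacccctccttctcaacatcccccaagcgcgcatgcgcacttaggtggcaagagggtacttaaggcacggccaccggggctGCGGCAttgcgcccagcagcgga
Sfmbt2 (chr2:10372186-10372485, plus strand), the start of its most abundant transcripts: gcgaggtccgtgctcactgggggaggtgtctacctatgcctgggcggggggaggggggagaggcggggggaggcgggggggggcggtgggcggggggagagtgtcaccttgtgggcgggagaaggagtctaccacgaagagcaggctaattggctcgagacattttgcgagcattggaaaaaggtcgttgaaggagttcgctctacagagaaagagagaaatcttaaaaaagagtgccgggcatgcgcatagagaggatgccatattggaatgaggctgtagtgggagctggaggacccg
Peg3 (chr7:6730370-6730669, minus strand), which shares 263 bases with the window of Usp29 on the other strand: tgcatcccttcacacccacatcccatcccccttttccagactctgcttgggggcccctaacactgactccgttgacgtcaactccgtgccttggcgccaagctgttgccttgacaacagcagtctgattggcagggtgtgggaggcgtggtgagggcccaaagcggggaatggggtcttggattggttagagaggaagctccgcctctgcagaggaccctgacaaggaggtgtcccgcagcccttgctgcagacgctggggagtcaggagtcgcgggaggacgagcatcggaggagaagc
The Grb10 and Nnat windows each held 1 hexamer, downstream of the start, and those of Sfmbt2 and Peg3 held none. Of 53 windows for 37 listed genes 24.5% held at least 1 hexamer on either strand, beside 11.6% of 32851 windows of all genes. Not all windows are distinct. Among those with the hexamer, Snrpn and Snurf have the same window, counted for each, and the Mest windows overlap almost wholly. The listed genes' windows also held more CpG pairs, with a median of 16 per window beside 7 for all windows. A match is a description of the letters and not a measured binding site.

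Of the 42 genes, 33 reached 1 CPM in at least 1 library and 9 did not. Calls used a rule of size: the 95% counting interval of the fold (Clopper-Pearson, in parentheses after log2 folds) had to lie wholly beyond 2-fold. This interval covers counting error only. In the ATRX knockout against wildtype, 3 of the 33 tested members rose (9.09%) and 2 fell (6.06%). Among all 13230 genes tested, 0.695% rose and 1.15% fell. In the DAXX knockout against wildtype, 1 of 33 rose and 1 fell (3.03% each), beside 0.487% and 1.55% of all genes. In the ATRX knockout against the DAXX knockout, 2 of 32 members were higher (6.25%) and 0 were lower, beside 0.77% and 0.362% of all genes. The median log2 fold of the members was -0.08 in the ATRX knockout and -0.10 in the DAXX knockout, beside 0.02 and 0.03 for all genes. The members past the rule were Grb10, Cdkn1c, Nnat, Sfmbt2, Usp29 and Igf2. Both comparisons with wildtype share the wildtype library.

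With a limit of 1.5-fold in place of 2-fold, 6 of 33 members were higher and 4 lower in the ATRX knockout against wildtype, where 2.54% and 2.75% of all genes were. The same limit gave 2 higher and 3 lower in the DAXX knockout against wildtype (1.4% and 3.13% of all genes). It gave 5 higher and 3 lower of 32 members in the ATRX knockout against the DAXX knockout (2.5% and 1.49% of all genes). The plot of levels by library shows that most members lay close together in the 3 libraries.

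**Figure D1:**
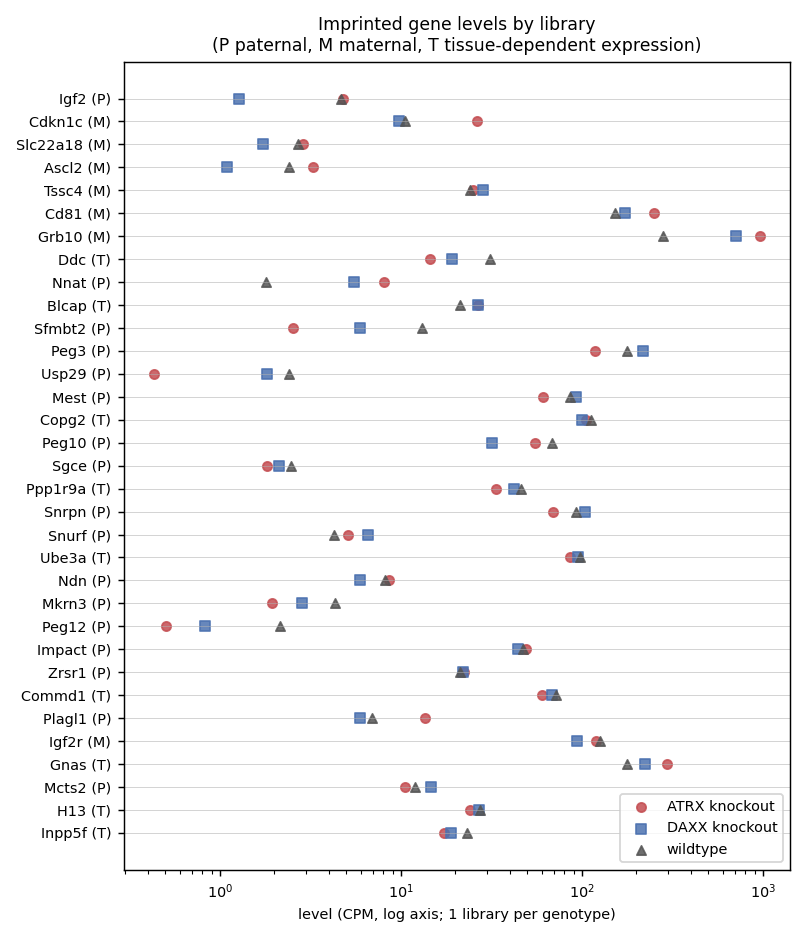
Level of each member with at least 1 CPM in at least 1 library, in CPM on a log axis, with 1 point per library (circle, ATRX knockout; square, DAXX knockout; triangle, wildtype). Genes run by domain, and Grb10, at 965, 714 and 279 CPM, lies far to the right with both knockouts above wildtype.

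Per transcript length, the highest members in wildtype were Cd81 at 100, Grb10 at 77.4 and Gnas at 77 RPKM (CPM divided by transcript length in kilobases), followed by Mest at 52 RPKM. Grb10 was the highest in both knockouts, at 271 RPKM in the ATRX knockout and 200 RPKM in the DAXX knockout. The lowest of the tested genes in wildtype was Usp29, at 0.536 RPKM.

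Among the maternally expressed growth restrainers, Grb10 showed the best counted difference. Grb10 (chromosome 11, 11930508 to 12038683, minus strand, GRCm38) encodes an adaptor that dampens signalling by the insulin and IGF1 receptors. It had 13369 reads in the ATRX knockout and 7800 in the DAXX knockout, against 4055 in wildtype. Both knockout levels were above wildtype, and the ATRX knockout was the higher of them. Its log2 fold was 1.79 (1.74 to 1.84) in the ATRX knockout and 1.35 (1.30 to 1.41) in the DAXX knockout, with 0.43 (0.39 to 0.48) between the ATRX and the DAXX knockout. In mouse, most tissues use Grb10 from the maternal copy while neurons use a paternal promoter inside the gene, so its transcripts were compared by start. The transcript from the upstream start, ENSMUST00000093321, had 6026 reads in the ATRX knockout and 3524 in the DAXX knockout, against 1855 in wildtype. The transcript that starts at 12027971, ENSMUST00000109654, had 5101 and 3012 reads in the knockouts, against 1506 in wildtype. The log2 folds of all 5 listed transcripts were 1.72 to 2.05 in the ATRX knockout and 1.20 to 1.77 in the DAXX knockout. The transcripts share exons and reads in shared exons may fall on any of them, so these values do not show which start was used.

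The genes around Grb10 lay on the other side of 0. Ddc, its neighbour in the domain, encodes the decarboxylase that makes dopamine and serotonin and is paternally expressed in mouse heart. Ddc had 201 reads in the ATRX knockout and 209 in the DAXX knockout, against 452 in wildtype. Its log2 folds of -1.10 (-1.35 to -0.86) and -0.70 (-0.95 to -0.46) were on the side opposite to Grb10, short of the 2-fold rule. Fignl1, an ATPase of DNA repair on the far side of Ddc, was at -0.43 (-0.52 to -0.34) in the ATRX knockout and -0.35 (-0.44 to -0.25) in the DAXX knockout. Cobl, an actin nucleator beyond the other end, was at -0.22 (-0.28 to -0.17) and -0.10 (-0.15 to -0.04). These values stand beside a shift of the whole chromosome, since 1034 measured genes of chromosome 11 had a median log2 fold of -0.23 in the ATRX knockout and -0.24 in the DAXX knockout, beside 0.02 and 0.03 for all genes. Its part in the values of Ddc, Fignl1 and Cobl was not tested.

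**Figure D2:**
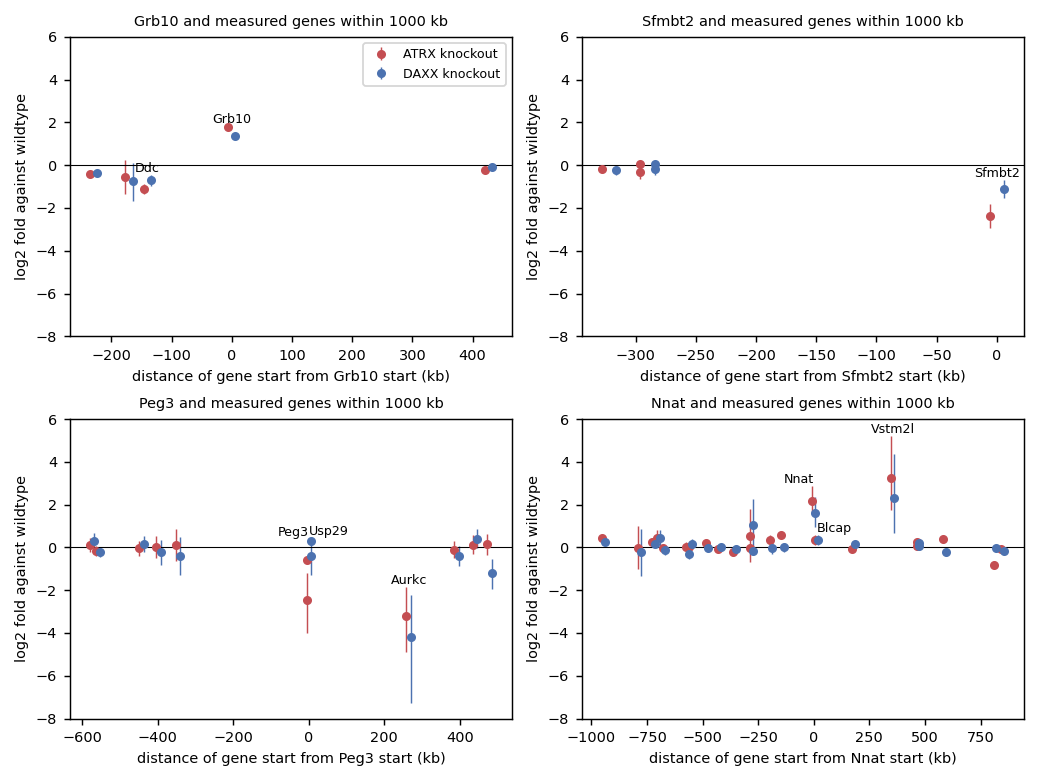
Log2 fold against wildtype (y axis) with its 95% counting interval for every measured gene within 1000 kb of Grb10, Sfmbt2, Peg3 or Nnat, by distance of the gene's start from that gene's start (x axis, kb, along the chromosome). Red is the ATRX knockout and blue the DAXX knockout, offset sideways for clarity. Grb10 stands above 0 in both while the 3 measured genes around it that are not members lie between -0.54 and -0.22 in the ATRX knockout.

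Cdkn1c, on chromosome 7 at 143458339 to 143461050, encodes the cell cycle inhibitor p57. It had 363 reads in the ATRX knockout and 107 in the DAXX knockout, against 152 in wildtype. The ATRX knockout thus stood apart from the other 2 libraries. Its log2 fold against wildtype was 1.32 (1.05 to 1.61) in the ATRX knockout and -0.10 (-0.47 to 0.27) in the DAXX knockout. The ATRX knockout was above the DAXX knockout by 1.42 (1.11 to 1.74). The ATRX knockout's call against wildtype was close to the limit and was lost with scaling by total reads (1.26) and with its most abundant transcript (1.27).

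The other members of the Kcnq1 domain, several of which are imprinted chiefly in placenta, did not pass the 2-fold rule. Cd81, a tetraspanin of the cell surface, had 3466 reads in the ATRX knockout and 1878 in the DAXX knockout, against 2226 in wildtype. Its log2 folds were 0.71 (0.63 to 0.78) and 0.17 (0.08 to 0.25), the first of them past 1.5-fold. Ascl2, a transcription factor of trophoblast, had 45 and 12 reads in the ATRX and DAXX knockouts, against 35 in wildtype. Ascl2 differed by 1.56 (0.62 to 2.62) between the ATRX and the DAXX knockout, past 1.5-fold, at a level of 3.25 and 1.1 CPM. Of 7 trophoblast markers tested between these libraries, Krt19 and Esx1 were higher in the ATRX knockout and 0 were lower by the 2-fold rule. The shares of all genes were 0.77% higher and 0.362% lower. Tfap2c lay the other way, at -0.64 (-0.83 to -0.46), and Eomes was at -0.09 (-0.64 to 0.46). The part of trophoblast cells in the Ascl2 value was not tested. Slc22a18, a transporter, had 40 and 19 reads in the ATRX and DAXX knockouts, against 39 in wildtype. Tssc4 had 345 and 309 reads, against 351 in wildtype, with log2 folds of 0.04 and 0.23. Kcnq1, the potassium channel that gives the domain its name, had only 7 and 4 reads, against 2 in wildtype.

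The ligand, clearance receptor and noncoding RNA of the Igf2 system had 1 member past the 2-fold rule. Igf2, the paternally expressed growth factor of chromosome 7 (142650766 to 142666816, minus strand), had 66 reads in the ATRX knockout and 14 in the DAXX knockout, against 68 in wildtype. The DAXX knockout was the low library, with a log2 fold of -1.87 (-2.81 to -1.03) against wildtype. The ATRX knockout was at 0.02 (-0.49 to 0.54) against wildtype and at 1.89 (1.05 to 2.84) against the DAXX knockout. Of 14 tested markers of endoderm, in which Igf2 is expressed in the embryo, 4 were lower in the ATRX knockout and 12 in the DAXX knockout, against wildtype. Of 9 fibroblast markers tested, 1 was lower in the ATRX knockout and 4 of 9 in the DAXX knockout. Among all genes, 1.15% were lower in the ATRX knockout and 1.55% in the DAXX knockout. The part of endoderm cells and fibroblasts in the Igf2 value was not tested. Igf2 rests on few reads, and its calls were lost with its most abundant transcript (-1.76 in the DAXX knockout against wildtype) and with counts thinned to the smallest library (-1.82). H19, the noncoding RNA expressed from the maternal copy of the same domain, had 2 and 0 reads in the ATRX and DAXX knockouts, against 6 in wildtype.

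Igf2r, the maternally expressed receptor that clears IGF2, had 1661 reads in the ATRX knockout and 1026 in the DAXX knockout, against 1835 in wildtype. Its log2 folds were -0.08 (-0.17 to 0.02) and -0.43 (-0.54 to -0.32), inside the limit. Airn, the paternal noncoding RNA that silences Igf2r in differentiated mouse cells, and Slc22a3, a cation transporter of the same domain, had 0 reads in all 3 libraries. The Airn transcripts counted were 485 to 1113 bases long, for a gene that runs from 12741311 to 12860136. Unspliced Airn RNA was not measured.

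Plagl1, a paternally expressed zinc finger factor known in mouse to raise other imprinted genes such as Igf2, H19 and Cdkn1c, had 188 reads in the ATRX knockout and 65 in the DAXX knockout, against 100 in wildtype. The ATRX knockout was the high library, as for Cdkn1c. Igf2 was at 0.02 (-0.49 to 0.54) in the ATRX knockout, and H19 had 2 reads there, against 6 in wildtype. The part of Plagl1 in these values was not tested. The log2 fold of Plagl1 was 0.98 (0.62 to 1.34) in the ATRX knockout and -0.21 (-0.68 to 0.25) in the DAXX knockout, with 1.19 (0.78 to 1.62) between the ATRX and the DAXX knockout, past 1.5-fold and short of 2-fold.

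Nnat was the paternally expressed gene that rose. It encodes neuronatin, a small membrane protein of neural and endocrine cells, and lies at 157560078 to 157562522 on chromosome 2 within an intron of Blcap. Nnat had 112 reads in the ATRX knockout and 60 in the DAXX knockout, against 26 in wildtype. Its log2 fold was 2.17 (1.55 to 2.85) in the ATRX knockout and 1.62 (0.93 to 2.34) in the DAXX knockout, the second short of the 2-fold rule. Blcap, the host gene on the opposite strand, had 368 and 290 reads in the ATRX and DAXX knockouts, against 306 in wildtype, and a log2 fold of 0.33 in both. The spliced Nnat and Blcap transcripts share no exact stretch of 50 bases on either strand, but unspliced Blcap RNA across Nnat was not measured, and its part in the Nnat value was not tested. The 10 neural markers summed to 143 CPM in the ATRX knockout, 133 CPM in the DAXX knockout and 155 CPM in wildtype. Of the 6 tested, Neurod1 rose in the ATRX knockout, where 0.695% of all genes did. Neurod1 had 209 reads there and 90 in the DAXX knockout, against 81 in wildtype. The neural markers did not move together: 4 of the 6 had a log2 fold below 0 in the ATRX knockout, and the median was -0.36. Pax6 was at -0.62 (-1.15 to -0.11), Nes at -0.44 (-0.63 to -0.25) and Tubb3 at -0.65 (-0.79 to -0.52) there. Sox1 lay on the same side as Neurod1 and Nnat, at 1.04 (0.83 to 1.25) in the ATRX knockout, past 1.5-fold. In the DAXX knockout Sox1 was at 0.47 (0.23 to 0.71). Neurog2 and Dcx were at 0 reads in all libraries, and the part of neural cells in the Nnat value was not tested. Of 21 other measured genes within 1000 kb, Vstm2l passed the rule, with 36 reads in the ATRX knockout and 15 in the DAXX knockout, against 4 in wildtype. Its log2 fold in the ATRX knockout was 3.24 (1.76 to 5.19), and it is named after its values were seen.

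Sfmbt2 and Usp29 were the members that fell in the ATRX knockout. Sfmbt2, on chromosome 2, is a Polycomb-group gene that is paternally expressed in mouse trophoblast. It had 35 reads in the ATRX knockout and 65 in the DAXX knockout, against 188 in wildtype. The wildtype library was the high one and the ATRX knockout the lowest. The log2 fold of Sfmbt2 was -2.36 (-2.92 to -1.83) in the ATRX knockout and -1.12 (-1.55 to -0.71) in the DAXX knockout, the second past 1.5-fold only. The ATRX knockout was below the DAXX knockout by the same lower limit, at -1.24 (-1.87 to -0.62). The transcripts from the start whose promoter is shown above, ENSMUST00000116594 and ENSMUST00000041105, carried 19 and 15 of the 35 reads in the ATRX knockout. The 3 other measured genes within 1000 kb lay between -0.33 and 0.06 in the ATRX knockout and between -0.24 and 0.05 in the DAXX knockout. Trophoblast markers were 1 of 7 lower in the ATRX knockout and 2 of 7 lower in the DAXX knockout. The shares of all genes were 1.15% and 1.55%. The part of trophoblast cells in the Sfmbt2 value was not tested.

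In the Peg3 domain of chromosome 7, the log2 folds of Peg3 and Usp29 differed in size. Peg3, a zinc finger repressor, and Usp29, which encodes a ubiquitin-specific peptidase, are paternally expressed and have annotated starts 164 bases apart on opposite strands. Usp29 also has a listed transcript from a distant start at 6961160, ENSMUST00000054055, with 1 read in each knockout, against 6 in wildtype. Peg3 had 1630 reads in the ATRX knockout and 2365 in the DAXX knockout, against 2564 in wildtype. Its log2 fold was -0.59 (-0.68 to -0.50) in the ATRX knockout and 0.29 (0.21 to 0.38) in the DAXX knockout, both inside the limit and on opposite sides of 0. Between the ATRX and the DAXX knockout Peg3 was at -0.88 (-0.97 to -0.79), past 1.5-fold. Usp29 had 6 reads in the ATRX knockout and 20 in the DAXX knockout, against 35 in wildtype. Its log2 fold was -2.48 (-4.02 to -1.21) in the ATRX knockout, a fall, and -0.40 (-1.27 to 0.44) in the DAXX knockout. The intervals of Peg3 and Usp29 in the ATRX knockout did not overlap, although Usp29 rests on few reads. Zim1, a maternally expressed zinc finger gene on the other side of Peg3, had 1 and 2 reads in the ATRX and DAXX knockouts, against 12 in wildtype. Aurkc, a germline kinase gene 264.9 kb from the Peg3 start and named after its values were seen, had 5 and 2 reads, against 48 in wildtype. Its log2 folds of -3.20 (-4.88 to -1.87) and -4.17 (-7.26 to -2.24) both passed the rule, and it was the only one of 9 measured genes within 1000 kb outside the list that did.

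**Figure D3:**
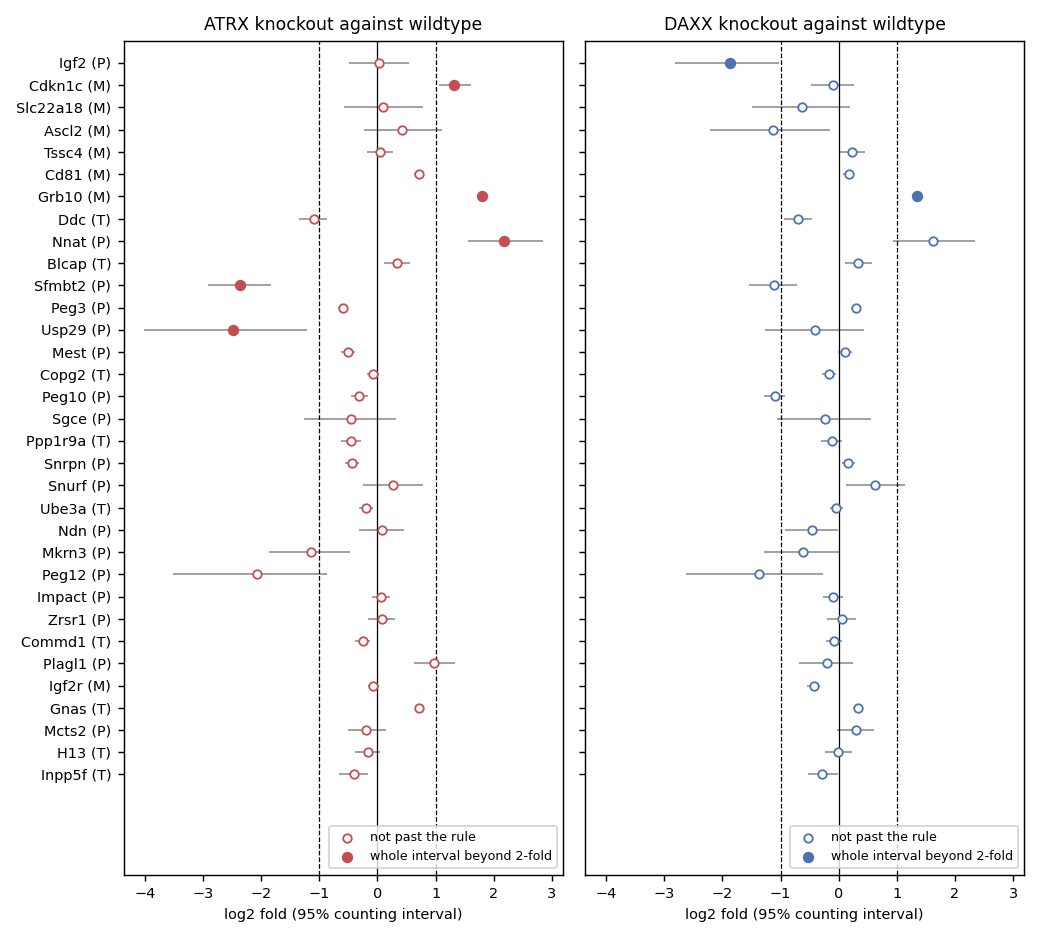
Log2 fold against wildtype with its 95% counting interval (x axis) for each of 33 members (y axis, by domain; P paternal, M maternal, T tissue-dependent expression), in the ATRX knockout (left) and the DAXX knockout (right). Filled points have the whole interval beyond 2-fold (dashed lines): Cdkn1c, Grb10, Nnat, Sfmbt2 and Usp29 in the ATRX knockout, and Igf2 and Grb10 in the DAXX knockout.

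The other paternally expressed domains held no gene past the 2-fold rule. Peg10, a retrotransposon-derived gene needed for placenta, had 764 reads in the ATRX knockout and 348 in the DAXX knockout, against 992 in wildtype. The DAXX knockout was the low library, at -1.10 (-1.28 to -0.92) against wildtype, and became a call (-1.19) with scaling by total reads. Its log2 fold in the ATRX knockout was -0.31 (-0.45 to -0.17). Sgce, a sarcoglycan that starts head to head with Peg10, had 25 and 23 reads in the ATRX and DAXX knockouts, against 36 in wildtype. Ppp1r9a, an actin-binding protein of the same domain, had 463 and 459 reads, against 665 in wildtype. Mest, a hydrolase-fold protein of mesoderm, had 839 reads in the ATRX knockout and 1010 in the DAXX knockout, against 1249 in wildtype, with log2 folds of -0.51 (-0.63 to -0.38) and 0.10 (-0.02 to 0.22). Copg2, a coatomer subunit whose end overlaps Mest on the other strand, had 1471 and 1092 reads in the ATRX and DAXX knockouts, against 1628 in wildtype. Of the 50-base stretches of Mest 31.1% occur on the opposite strand of Copg2, so their counts are uncertain where strand was not used.

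In the Snrpn domain of chromosome 7, the mouse counterpart of the Prader-Willi and Angelman region, Snrpn, a protein of spliceosomal particles, had 956 reads in the ATRX knockout and 1139 in the DAXX knockout, against 1354 in wildtype. Its log2 folds were -0.43 (-0.56 to -0.31) and 0.16 (0.05 to 0.28), inside the limit. Snurf, the upstream reading frame of Snrpn, had 71 and 72 reads, against 62 in wildtype, but 100% of its 50-base stretches lie in Snrpn transcripts and its counts are uncertain. Ube3a, the ubiquitin ligase that is maternally expressed in neurons, had 1188 and 1044 reads, against 1425 in wildtype, with log2 folds of -0.19 and -0.04. At the far end of the domain, levels were low. Ndn, a MAGE-family growth suppressor, had 119 and 65 reads in the ATRX and DAXX knockouts, against 119 in wildtype. Mkrn3, a ring finger protein, had 27 and 31 reads, against 63 in wildtype. Peg12, a relative of the Frat inhibitors of GSK3, had 7 and 9 reads, against 31 in wildtype, and its log2 fold of -2.08 (-3.51 to -0.87) in the ATRX knockout was past 1.5-fold. Wildtype was the high library for both Mkrn3 and Peg12. Magel2, another MAGE-family gene, had 5 and 2 reads, against 7 in wildtype.

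Gnas, which encodes the stimulatory G protein alpha subunit and several imprinted variants from other starts, had 4066 reads in the ATRX knockout and 2448 in the DAXX knockout, against 2591 in wildtype. Its log2 folds were 0.72 (0.65 to 0.79), past 1.5-fold, and 0.33 (0.25 to 0.41). Of its transcripts, those that begin at the start of the G protein subunit at 174330006 to 174330097 had log2 folds of 0.61 to 0.74 in the ATRX knockout. The transcript that begins at the Nesp start at 174284320 and has most reads, ENSMUST00000109096, was at 0.70 (0.44 to 0.97). These variants share the 3′ exons, so starts are again not separated. Mcts2, a retrogene of translation, had 146 and 160 reads in the ATRX and DAXX knockouts, against 174 in wildtype. Its host gene H13, a signal peptide peptidase, had 334 and 296 reads, against 395 in wildtype. Inpp5f, an inositol phosphatase with a paternal variant in brain, had 240 and 208 reads, against 335 in wildtype.

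Members on chromosomes 11 and 18 are given beside the median of their chromosome. The largest shift was that of chromosome Y, which holds no member. Its 5 measured genes had a median log2 fold of -1.24 in the ATRX knockout and -4.18 in the DAXX knockout. The cause of that difference between the clones was not tested. In the DAXX knockout, the 321 measured genes of chromosome 18 had a median log2 fold of 0.33 with quartiles of 0.12 and 0.48. Impact, a paternally expressed regulator of translation on chromosome 18, had 681 reads in the ATRX knockout and 482 in the DAXX knockout, against 685 in wildtype. Its log2 fold of -0.10 (-0.27 to 0.07) in the DAXX knockout lay below the lower quartile of the chromosome, a place that many genes hold by definition. Its neighbour Osbpl1a, an oxysterol-binding protein, was at 0.57 (0.42 to 0.73) there. On chromosome 11, Zrsr1, a paternally expressed retrogene related to a splicing factor, had 308 reads in the ATRX knockout and 240 in the DAXX knockout, against 308 in wildtype. Its log2 folds of 0.07 (-0.16 to 0.30) and 0.05 (-0.20 to 0.30) have intervals above the chromosome's medians of -0.23 and -0.24, but its upper quartiles of -0.02 and -0.08 lie inside them. Commd1, the host gene of Zrsr1 and a copper and NF-kappaB regulator, had 838 and 743 reads, against 1048 in wildtype, with log2 folds of -0.25 (-0.39 to -0.12) and -0.09 (-0.22 to 0.05).

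Grouped by expressed copy, 17 paternally expressed members that averaged 1 CPM or more had a median log2 fold of -0.31 in the ATRX knockout and -0.20 in the DAXX knockout. In this group, 1 of 17 tested rose and 2 fell in the ATRX knockout, and 0 rose and 1 fell in the DAXX knockout. The 7 maternally expressed members had medians of 0.42 and -0.09. Of them, 2 of 7 were higher in the ATRX knockout, 1 of 7 in the DAXX knockout and 0 lower in both. The median of 0.42 lay at Ascl2, with 45 reads in the ATRX knockout against 35 in wildtype. The interval of its log2 fold, -0.24 to 1.11, covers 0. The 9 members whose imprint depends on tissue had medians of -0.19 and -0.09, with 0 called. All genes had medians of 0.02 and 0.03. By the 2-fold rule 0.695% of all genes rose and 1.15% fell in the ATRX knockout. In the DAXX knockout 0.487% rose and 1.55% fell. Counts of 0 in groups of 7 or 9 genes are near these shares and are no contrast between the classes. The medians moved with the processing: that of the paternally expressed genes in the DAXX knockout was -0.08 with thinned counts, and that of the maternally expressed genes in the ATRX knockout was 0.65. The classes follow what is known in mouse tissues, and which copy was active in these clones was not measured.

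**Figure D4:**
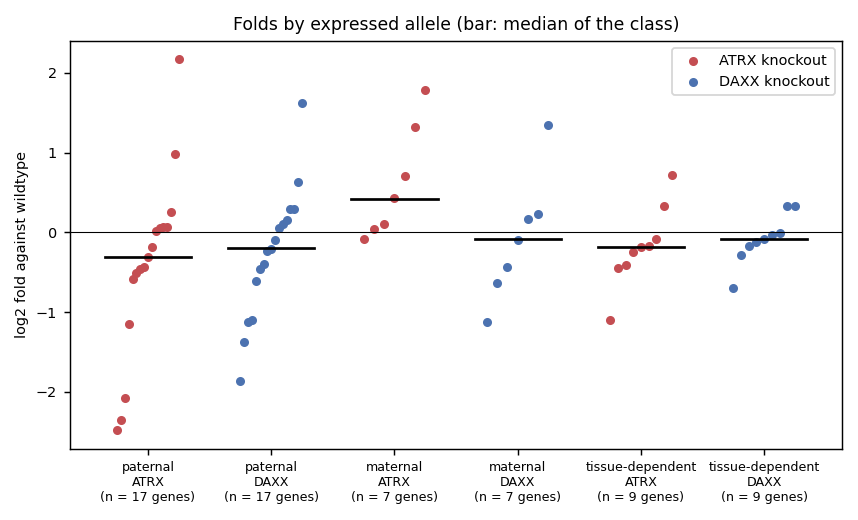
Log2 fold against wildtype (y axis) of each member with at least 1 CPM, by expressed copy and knockout (x axis; red ATRX, blue DAXX; n is the number of genes). The black bar is the class median, at 0.42 for maternally expressed genes in the ATRX knockout and -0.31 for paternally expressed ones. The 0.42 lies at Ascl2, whose interval covers 0, and the points of the classes overlap.

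The remaining 9 measured members did not reach 1 CPM in any library. Besides H19, Kcnq1, Zim1, Magel2, Airn and Slc22a3 these were Nap1l5, Rasgrf1 and Dcn. Nap1l5, a nucleosome assembly-like retrogene of brain, had 1 and 5 reads in the ATRX and DAXX knockouts, against 8 in wildtype. Rasgrf1, a Ras exchange factor, and Dcn, the proteoglycan decorin of fibroblasts, each had 0 reads in both knockouts, against 1 in wildtype.

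Genes beside the imprinted domains were compared as a list of 56 neighbours that are mostly active on both copies. Of 37 tested, 0 passed the 2-fold rule in either knockout against wildtype, with a median log2 fold of 0.06 in the ATRX knockout and -0.07 in the DAXX knockout. Among all genes, 0.695% rose and 1.15% fell in the ATRX knockout, and 0.487% rose and 1.55% fell in the DAXX knockout. A count of 0 in 37 is near these shares. Between the ATRX and the DAXX knockout, 1 of 35 was higher (2.86%, beside 0.77% of all genes). That was Itga8, an integrin gene, with 50 reads in the ATRX knockout and 8 in the DAXX knockout, against 24 in wildtype. The Dlk1-Dio3 domain had 2 of 7 tested genes lower in the ATRX knockout and 2 of 6 in the DAXX knockout. These were its maternally expressed noncoding RNAs Meg3, with 0 reads in both knockouts and 237 in wildtype, and Rian, with 6 and 0 reads in the ATRX and DAXX knockouts, against 448 in wildtype. Of the noncoding RNAs in the imprinted list, H19 and Airn, the latter counted on short transcripts only, were below 1 CPM in all libraries.

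Of 26 tested genes on the list of imprinting regulators, 0 rose and 1 fell in each knockout against wildtype. The list is broad, and some of its genes, Tet1, Tet2 and Tet3 among them, do not set or keep imprints. In the ATRX knockout the gene that fell was Dppa3, which guards methylated imprints in the zygote. Dppa3 had 10 reads there and 60 in the DAXX knockout, against 123 in wildtype. In the DAXX knockout it was Dnmt3l, the cofactor that lays down imprints in germ cells, with 411 reads in the ATRX knockout and 195 in the DAXX knockout, against 905 in wildtype. Each is 3.85% of the list, beside 1.15% and 1.55% of all genes that fell in the ATRX and DAXX knockouts. With a limit of 1.5-fold, 0 were higher and 4 of 26 lower in the ATRX knockout (15.4%, beside 2.75% of all genes). Besides Dppa3 the lower ones were Dnmt3b at -1.08 (-1.23 to -0.94), Dnmt3l at -1.07 (-1.24 to -0.90) and Tet1 at -0.71 (-0.75 to -0.66). In the DAXX knockout 1 of 26 was lower at that limit (3.85%, beside 3.13%). Zfp57, which binds the hexamer given above, had log2 folds of -0.17 (-0.23 to -0.11) in the ATRX knockout and -0.05 (-0.11 to 0.01) in the DAXX knockout. Trim28, its corepressor, was at -0.37 (-0.39 to -0.34) and 0.05 (0.02 to 0.08). The list median was -0.14 in the ATRX knockout and 0.05 in the DAXX knockout, beside 0.02 and 0.03 for all genes.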

How the data were processed

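Polyadenylated RNA of 3 ESC clones was sequenced after TruSeq library preparation, per the labels' protocols. The deposited values are read counts per reference sequence, not normalised, with 1 table per library, and Bowtie 1.1.2, SAMtools and build GRCm38.p4 were used per the submitters' processing notes. Alignment settings, use of strand, treatment of reads with several positions and annotation release are not given in the sources used here.

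Reads of 48843 transcripts were summed to 24006 symbols and scaled by TMM (edgeR 4.0.16, R 4.3.3). Genes with at least 1 CPM in at least 1 of the 2 libraries compared were tested against the interval rule, and class medians used a prior count of 1. With 1 library per genotype no p-value was computed. Intervals cover counting error only, and PCR copies are not independent. The calling step was tested on counts simulated with counting error only, so that test does not cover differences between clones or libraries. Gene positions and transcript starts came from GENCODE M21 (GRCm38). DESeq2 1.42.0 gave median-of-ratios factors as an alternative. The rule for named genes took all members, with non-members from fixed lists. Members, lists and windows were chosen with earlier results of these data known.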

Additional observations from a re-analysis of the deposited data

How the results depend on the processing

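No paired analysis was possible because each genotype had 1 library, and for the same reason no replicate could be left out. The count of called members was 5 in the ATRX knockout against wildtype, 2 in the DAXX knockout against wildtype and 2 between the ATRX and the DAXX knockout. A limit of 1.5-fold gave 10, 5 and 8. The most abundant transcript of each gene, and likewise counts thinned to the smallest library, gave 1 in the DAXX knockout against wildtype and 1 between the knockouts, since Igf2 was lost, by construction with fewer reads. Scaling by total reads, which moved the median of all genes to -0.05 and -0.07 in the ATRX and DAXX knockouts, lost Cdkn1c and gained Peg10. Median-of-ratios factors and no filter on low counts changed 0 of the member calls. No member called in the main comparison changed direction under the alternatives run. The class medians by expressed copy kept their sign, but that of paternally expressed genes in the DAXX knockout went to -0.08 with thinned counts and -0.10 with the most abundant transcript, beside -0.20, and that of maternally expressed genes in the ATRX knockout went to 0.65 with either, beside 0.42. In the DAXX knockout, scaling by total reads gave -0.19 for maternally expressed and -0.18 for tissue-dependent genes, each beside -0.09, and the most abundant transcript gave -0.04 for the maternally expressed ones. Each class median is the value of its middle gene, so it moves with that gene or when another takes its place. The part of each in these shifts was not tested. Members with few reads, among them Usp29 and Peg12, have intervals too wide to place a difference more closely.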
